A study of Phyllostachys nigra with 21 samples.

Results

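The genes described here encode the enzymes and carriers that make, cut and move sucrose, the raffinose sugars and trehalose in culms of black bamboo (Phyllostachys nigra, Pn). A gene was included when its deposited description contained any of 12 words or phrases, such as sucrose synthase, invertase, galactinol, raffinose, stachyose, trehalose, sucrose transport or the SWEET sugar transporters. The rule used no measured value. It found 152 of the 42460 genes in the table. They comprised 10 sucrose-phosphate synthase, 12 sucrose synthase, 20 acid invertase, 14 neutral invertase, 4 invertase inhibitor, 9 galactinol synthase, 5 raffinose synthase, 2 stachyose synthase, 30 trehalose-phosphate synthase, 13 trehalose-phosphate phosphatase, 24 SWEET and 9 sucrose transporter genes.

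The study asked how low temperature bears on blackening of the Pn culm. Culms of potted greenhouse plants, green at the start, were kept in growth chambers at 4 °C (LT) or 25 °C (RT), and culm RNA was sequenced in 3 libraries of each group. The treated groups were LT1d, LT15d and LT25d, taken after 1, 15 and 25 days at 4 °C, and RT1d, RT15d and RT25d, taken on the same days at 25 °C. Culms taken before treatment (CK) made the 7th group, and the labels name no other agent for any group. The labels number the replicates without saying that each came from its own plant, so p-values measure the spread between these libraries only. The fit used 1 estimate of that spread per gene over all 7 groups, although the groups differed in spread.

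Sucrose is the form in which most plants move carbon. Sucrose-phosphate synthase makes its precursor, sucrose synthase and the invertases cut it, and SWEET proteins and sucrose transporters carry it across membranes. In the raffinose branch, galactinol synthase joins galactose to inositol, raffinose synthase passes that galactose on to sucrose, and stachyose synthase extends raffinose. In the trehalose branch, a synthase makes trehalose 6-phosphate, known in plants as a signal of sucrose status, and a phosphatase removes its phosphate. Raffinose sugars are well known to build up in many plants in the cold.

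Total counts ran between 33957497 and 50338658 per library (median 45608441). The coefficient of variation between replicates had a median over genes of 2.47% in LT15d, 2.55% in LT25d and 3.06% in RT15d, with 8.68% in LT1d, 10.3% in RT1d, 13.7% in RT25d and 23.7% in CK. With a read pair taken as 4 counts, an assumption drawn from the low counts, the LT15d, LT25d and RT15d replicates varied little more than counting noise allows. Counts of calls are therefore given also with the counts of each of these groups added up to 1 library (the libraries summed). Genes named for chlorophyll a-b binding proteins, which mark green tissue, summed to 5.36 to 13 FPKM in LT1d and 388 to 566 in RT1d, to 177 to 180 in LT15d and 320 to 355 in RT15d, and to 128 to 132 in LT25d and 44.1 to 124 in RT25d. Of the 10 tested, 10 were lower at LT on Day 1, 6 were lower and 1 higher on Day 15, and 4 were higher on Day 25. Their part in the results below was not tested. Cyclin-B genes, markers of dividing cells, summed to between 9.43 and 16.2 FPKM in the LT libraries and between 17.8 and 24.9 in the RT libraries, and 1, 2 and 3 of the 7 tested were lower at LT on Days 1, 15 and 25. Their part was not tested either, and none of 2 tested secondary wall cellulose synthase genes was called. In such bulk tissue, fewer cells of a type and less RNA per cell cannot be told apart.

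More sugar genes were higher at LT than lower on every day. Of the 152 genes, 100 reached an FPKM (fragments of a gene scaled to its transcript length and to the depth of the library) of 1 in at least 3 libraries and were tested with edgeR. A gene was called at an adjusted p of at most 0.05 and a log2 fold change of at least 1 in either direction. On Day 1, 41 of the 100 were called higher and 16 lower at LT, where 20.8% of all 29913 tested genes were called higher and 23.4% lower. On Day 15, 45 were higher and 19 lower, against 19.3% and 20.8% of all tested genes, and on Day 25, 32 were higher and 10 lower, against 11.3% and 13.2%. The median log2 fold change of the sugar genes was 0.52, 0.89 and 0.47 on Days 1, 15 and 25, beside -0.06, -0.02 and -0.02 over all tested genes.

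Scaling moved the first of these comparisons most. With the libraries scaled to their total count instead of by TMM (trimmed mean of M-values), the median of all tested genes shifted to -0.53 on Day 1 and -0.37 on Day 15, and 38 sugar genes were called higher and 24 lower on Day 1. The sugar genes' median then was 0.07 on Day 1 and 0.55 on Day 15. The shares of all tested genes called in each direction on a day are not given for this scaling or for the summed libraries. Counts under these settings are therefore not set against all tested genes. With the replicates of LT15d, of LT25d and of RT15d added up to 1 library a group, 26 were higher and 6 lower on Day 15 and 22 higher and 4 lower on Day 25, all of them among the genes called with separate libraries.

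**Figure D1:**
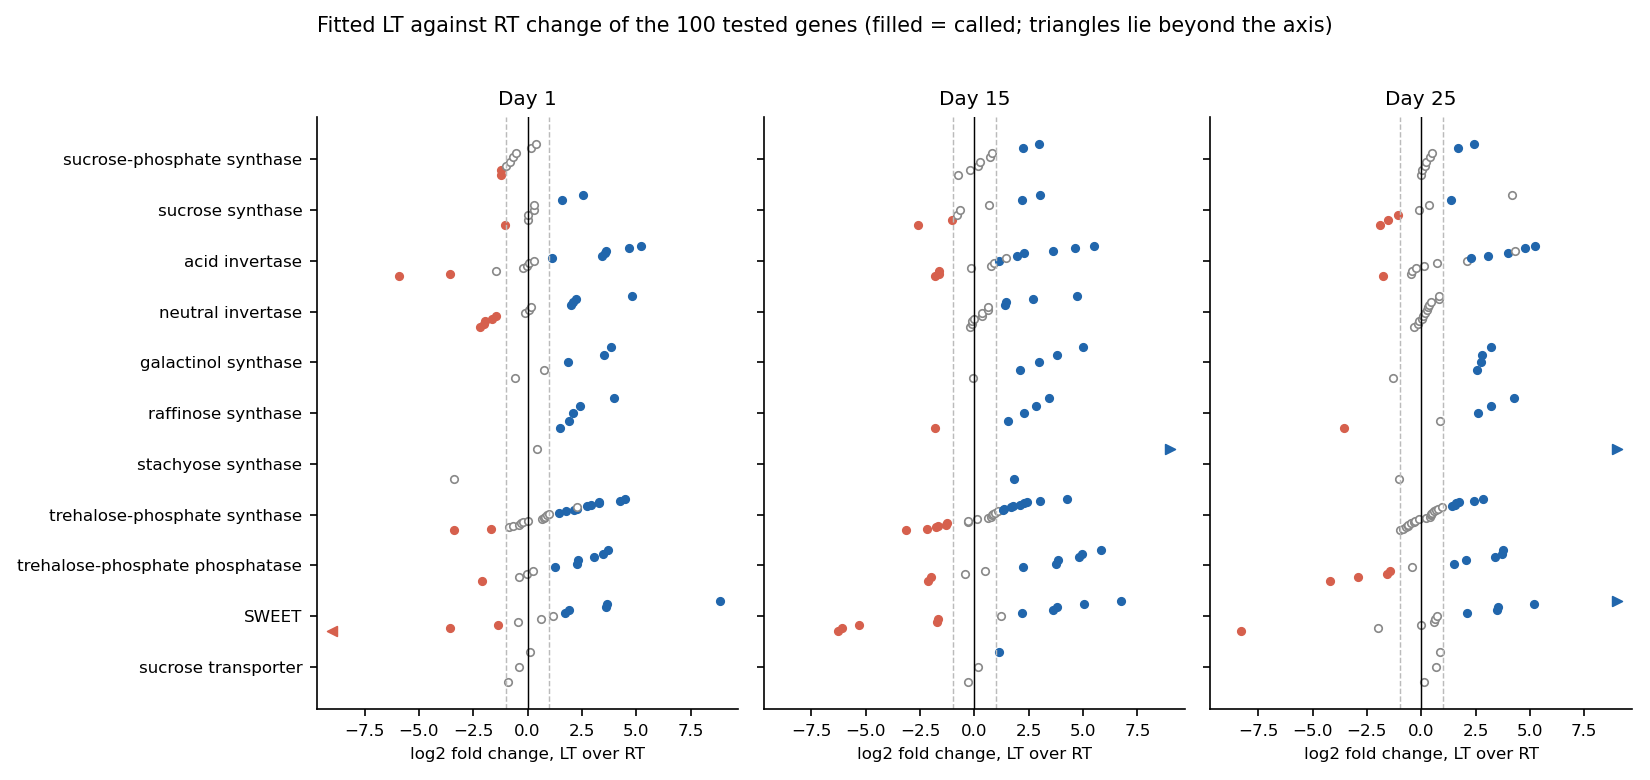
Fitted log2 fold change of LT over RT (x axis) for the 100 tested genes by role (rows) on Days 1, 15 and 25; blue points were called higher, red points lower, open points neither, triangles lie beyond the axis, and dashed lines mark a change of 1. Galactinol and raffinose synthase genes lie mostly to the right on all days, with 41, 45 and 32 blue points over all roles.

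Across days, 84 of the 100 were called on at least 1 day (65.0% of all tested genes) and 16 on none, and with the libraries summed 69 were (53.7%). Higher at LT on all 3 days were 17 sugar genes, a class that held 2.80% of all tested genes, and 10 of these 17 remained with the libraries summed (1.11%). The 17 were 4 trehalose-phosphate synthases, 2 trehalose-phosphate phosphatases, 3 SWEETs, 2 acid invertases, 2 galactinol synthases, 3 raffinose synthases and 1 sucrose synthase. Only PH02Gene46034, a sucrose synthase, was lower on all 3 days (3.59% of all tested genes), and it left that class with the libraries summed (1.16%).

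The 52 genes that were not tested had mean levels of at most 0.459 FPKM over the 21 libraries. They included all 4 invertase inhibitor genes, whose products block acid invertases. The highest of them, PH02Gene39731, reached at most 0.53 FPKM in any library. Among the tested genes, PH02Gene20090 reached 1 FPKM only in LT1d, PH02Gene44870 and PH02Gene33899 (a trehalose-phosphate synthase, chosen after its values were seen) only in LT15d, and PH02Gene21818 only in RT1d. These genes were tested only because they were high in that group, so its difference from the others is a description. The same holds for PH02Gene46766, which passed the filter in 3 LT1d libraries and 2 others. PH02Gene16852 passed in 2 LT1d and 2 CK libraries and needed both groups. PH02Gene16676 passed in 1 library each of CK, LT1d and RT15d and needed all 3 groups. PH02Gene10704 needed LT15d (3 libraries and 2 others).

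Galactinol synthase, the enzyme that starts the raffinose branch, had the highest summed level of any role in LT15d. The 9 genes summed to 324 ± 59.6 FPKM in LT1d and 186 ± 26.0 in RT1d, to 990 ± 9.39 in LT15d and 188 ± 6.48 in RT15d, and to 151 ± 1.35 in LT25d and 21.6 ± 3.59 in RT25d (mean ± SD, n = 3 each). CK stood at 445 ± 176 FPKM. The RT sums therefore lay below every CK library on all 3 days, whereas the LT sums exceeded every CK library only on Day 15. Of the 5 tested genes, 3 were higher at LT on Day 1, 4 on Day 15 and 4 on Day 25, none was lower, and all 8 calls of Days 15 and 25 remained with the libraries summed.

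The galactinol synthase with the highest mean level was PH02Gene36618 (scaffold 15, 47836018 to 47838609 of the moso bamboo assembly used by the authors). It measured 48.6, 49.8 and 48.4 FPKM in LT1d against 85.0, 127 and 101 in RT1d. On Day 15 it measured 406, 408 and 400 FPKM in LT15d against 127, 119 and 128 in RT15d, and on Day 25 90.1, 89.4 and 88.9 in LT25d against 10.9, 13 and 15.6 in RT25d. The groups did not overlap on any day, with LT below RT on Day 1 and above it later. The fitted log2 changes were -0.57 ± 0.24 (SE, edgeR adjusted p = 0.0471) on Day 1, short of the fold threshold, 2.09 ± 0.25 (adjusted p = 1.62e-06) on Day 15 and 2.81 ± 0.26 (adjusted p = 2.36e-07) on Day 25. With library-size scaling the Day 1 change was -1.04 and called.

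PH02Gene36619 lies beside it on scaffold 15 (47920489 to 47922429), has the same description and was chosen after its values were seen. It measured 10.5, 14.4 and 14.5 FPKM in LT1d against 10.7, 12.2 and 10.3 in RT1d, which overlapped. It then measured 260, 259 and 258 FPKM in LT15d against 25.0, 23.8 and 25.2 in RT15d, and 33.7, 32.2 and 30.2 in LT25d against 3.80, 3.08 and 3.90 in RT25d. The log2 changes of Days 15 and 25 were 3.79 ± 0.23 and 3.19 ± 0.23. The sources used here do not say how reads shared by such neighbouring copies were divided.

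A second pair of galactinol synthases, also chosen after their values were seen, was already higher at LT on Day 1. PH02Gene28670 measured 79.1, 163 and 121 FPKM in LT1d against 13, 17.9 and 15.0 in RT1d, 139, 133 and 133 in LT15d against 5.68, 4.78 and 6.03 in RT15d, and 9.56, 10.01 and 11 in LT25d against 2.16, 1.62 and 1.48 in RT25d. PH02Gene25695 measured 123, 152 and 143 FPKM in LT1d against 58.1, 57.9 and 48.6 in RT1d, 193, 189 and 188 in LT15d against 31.7, 31.9 and 32.9 in RT15d, and 19.1, 17.8 and 20.3 in LT25d against 1.48, 3.03 and 4.33 in RT25d. No LT library overlapped an RT library of its day for either gene. In CK they averaged 163 ± 58.9 and 160 ± 62.8 FPKM, so the LT1d and LT15d levels lay within the CK range apart from 1 LT1d library of PH02Gene28670, while the RT levels lay below every CK library.

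**Figure D2:**
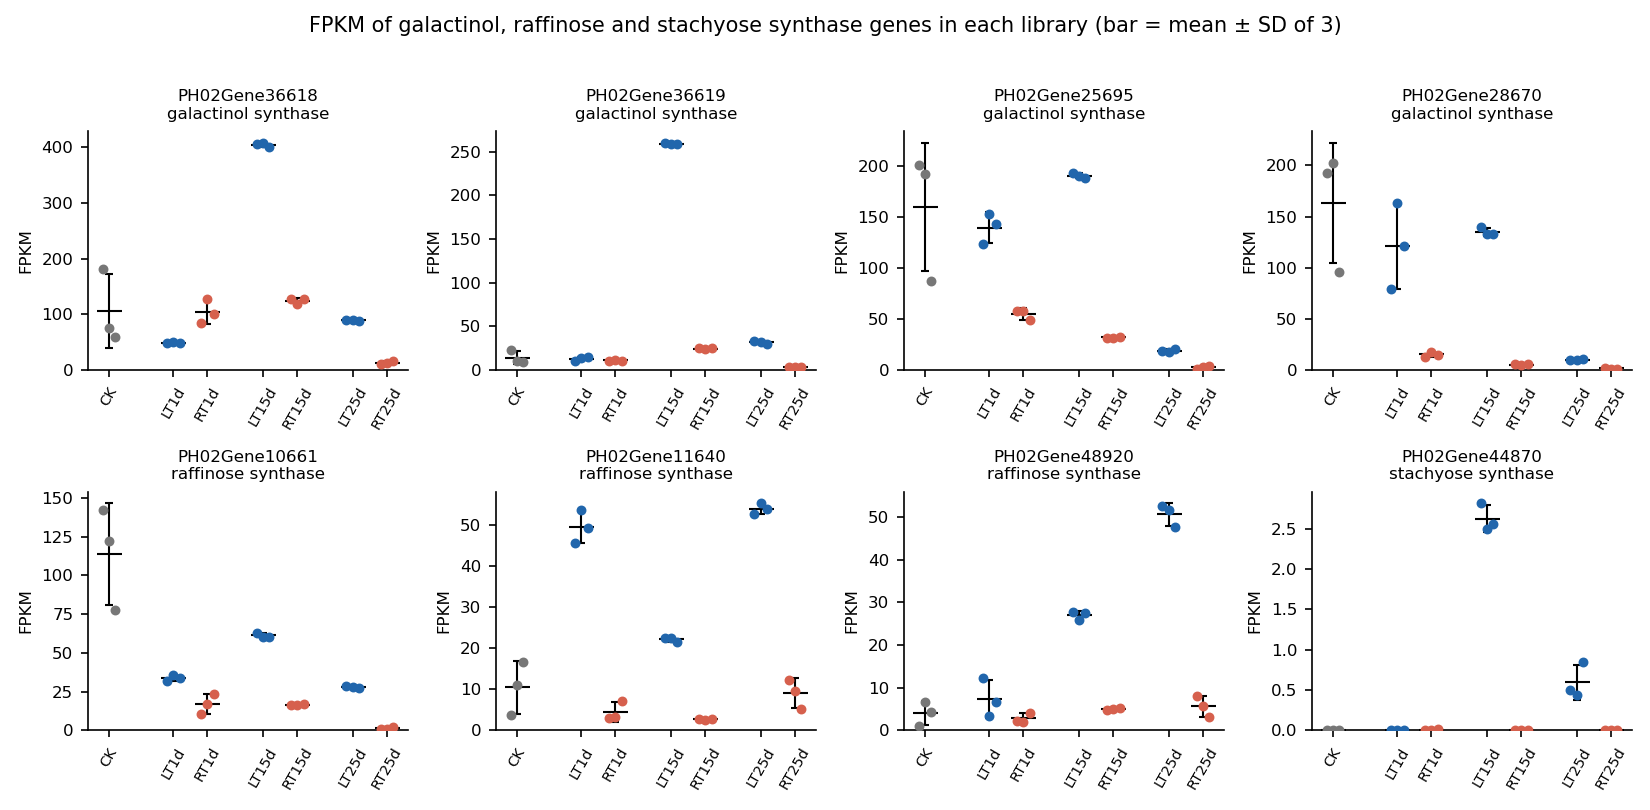
FPKM (y axis, linear) of 4 galactinol synthase genes, 3 raffinose synthase genes and the stachyose synthase-like gene in each of the 21 libraries (points) with the mean ± SD of 3 (bars); grey is CK, blue LT and red RT. PH02Gene36618 and PH02Gene36619 peak in LT15d, at means of 405 and 259 FPKM, whereas PH02Gene44870 is above 0.1 FPKM only in LT15d and LT25d.

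Raffinose synthase, which commits galactose to sucrose, had a higher summed level at LT on all days. The 5 genes summed to 97.4 ± 2.77 FPKM in LT1d and 26.5 ± 10.5 in RT1d, to 115 ± 3.40 in LT15d and 29.0 ± 0.760 in RT15d, and to 141 ± 3.75 in LT25d and 22.7 ± 8.20 in RT25d, with 131 ± 28.0 in CK. All 5 were tested. On Day 1 all 5 were higher at LT, on Day 15 4 were higher and 1 lower, and on Day 25 3 were higher and 1 lower. With the libraries summed, 2 of the 5 Day 15 calls and all 4 Day 25 calls remained.

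PH02Gene10661 (scaffold 14, 98855455 to 98859397) was the raffinose synthase with the highest mean level. It measured 31.9, 35.6 and 34.1 FPKM in LT1d against 10.4, 17.2 and 23.7 in RT1d, 63.2, 60.6 and 60.4 in LT15d against 16.5, 16.4 and 17.2 in RT15d, and 28.4, 28.2 and 27.4 in LT25d against 0.842, 1.24 and 2.34 in RT25d. CK measured 142, 122 and 77.6 FPKM, above every treated library. The LT over RT log2 change was 1.5 ± 0.30 on Day 1, 2.28 ± 0.30 on Day 15 and 4.29 ± 0.34 on Day 25 (edgeR adjusted p = 0.000252, 5.5e-06 and 3.63e-08). The change against CK was -1.56 in LT1d, -0.74 in LT15d (not called) and -2.27 in LT25d, and -3.06, -3.02 and -6.56 in RT1d, RT15d and RT25d.

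PH02Gene11640 and PH02Gene48920, chosen after their values were seen, made up most of the LT25d raffinose synthase level. PH02Gene11640 measured 45.7, 53.6 and 49.3 FPKM in LT1d against 2.99, 3.32 and 7.27 in RT1d, 22.5, 22.5 and 21.4 in LT15d against 2.87, 2.59 and 2.68 in RT15d, and 52.7, 55.4 and 53.7 in LT25d against 12.3, 9.67 and 5.11 in RT25d. PH02Gene48920 averaged 7.46 ± 4.44 FPKM in LT1d, 27.0 ± 1.07 in LT15d and 50.6 ± 2.67 in LT25d, against 2.83 ± 1.19 in RT1d, 4.95 ± 0.255 in RT15d and 5.66 ± 2.41 in RT25d. Both genes were called higher at LT on every day, although the Day 1 libraries of PH02Gene48920 overlapped and the Day 15 call of PH02Gene48920 was lost with the libraries summed (edgeR adjusted p = 0.103).

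PH02Gene07569, chosen after its values were seen, averaged 3.96 ± 1.71 FPKM in LT1d and 1.33 ± 0.705 in RT1d, 3.90 ± 0.537 in LT15d and 1.77 ± 0.287 in RT15d, and 7.92 ± 0.589 in LT25d and 4.51 ± 2.46 in RT25d. It was called higher at LT on Day 1, although the libraries overlapped, and on Day 15, but not on Day 25 (log2 change 0.84 ± 0.55). The Day 15 call (1.53 ± 0.57, edgeR adjusted p = 0.0259) was lost with the libraries summed (adjusted p = 0.375), with library-size scaling (0.0853), and without LT15d replicate 1 (0.0648), RT15d replicate 1 (0.0750) or RT15d replicate 3 (0.0708).

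PH02Gene12725 changed direction with time. It measured 2.93, 2.33 and 2.66 FPKM in LT1d against 0.764, 0.776 and 0.602 in RT1d, 0.950, 0.429 and 0.448 in LT15d against 2.80, 2.61 and 3.15 in RT15d, and 0.0912, 0.158 and 0.241 in LT25d against 2.39, 2.28 and 1.43 in RT25d. LT thus lay above RT on Day 1 and below it on the later days, without overlap. The log2 changes were 2.40 ± 0.52, -1.83 ± 0.51 and -3.57 ± 0.57, and the Day 15 change was not called with the libraries summed (edgeR adjusted p = 0.202).

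The stachyose synthase-like gene PH02Gene44870 (scaffold 7, 59144788 to 59148455) was found almost solely in LT15d and LT25d. It measured 2.82, 2.50 and 2.55 FPKM in LT15d and 0.504, 0.438 and 0.843 in LT25d, and 0 in all libraries of LT1d, RT15d, RT25d and CK. Of the RT1d libraries, 1 held 0.0194 FPKM and the others 0. Against a floor of 12 counts per library, it was at least 51.0-fold higher in LT15d than in RT15d, a description since LT15d alone brought it past the filter, and at least 9.48-fold higher in LT25d than in RT25d (edgeR adjusted p = 6e-05). The other gene so named, PH02Gene32109, averaged 2.55 ± 0.423 FPKM in LT15d and 0.953 ± 0.254 in RT15d (log2 change 1.81 ± 0.45), was not called on Days 1 and 25, and lost its Day 15 call with the libraries summed (edgeR adjusted p = 0.131).

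The substrates of this branch are made by enzymes outside the 12 phrases. UDP-glucose 4-epimerase interconverts UDP-glucose and UDP-galactose, and inositol-3-phosphate synthase makes the precursor of inositol. Of 5 tested epimerase genes, 3, 5 and 2 were higher at LT on Days 1, 15 and 25 and none was lower. The most abundant, PH02Gene34943, measured 353, 499 and 432 FPKM in LT1d against 49.5, 70.9 and 67.4 in RT1d, 708, 707 and 714 in LT15d against 65.4, 64.8 and 63.7 in RT15d, and 831, 841 and 831 in LT25d against 72.5, 55.2 and 35.2 in RT25d. CK measured 359, 415 and 396 FPKM, so the RT level was far below CK and the LT level near or above it. Another neighbouring list, UTP--glucose-1-phosphate uridylyltransferase, ran the other way. Its 1 tested gene was lower at LT on Days 1 and 15 (log2 changes -2.54 and -1.35). On Day 25 it was not called (0.20).

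Of 2 tested inositol-3-phosphate synthase genes, none was called on Day 1, 2 were higher at LT on Day 15 and 1 on Day 25. PH02Gene05437 measured 295, 278 and 282 FPKM in LT15d against 11, 12.5 and 11.8 in RT15d, a log2 change of 4.99 ± 0.26. It was again higher in LT25d, at 48.6 ± 1.53 FPKM against 2.81 ± 0.611 in RT25d, and overlapped on Day 1, at 19.9 ± 3.65 FPKM in LT1d and 22 ± 0.690 in RT1d. PH02Gene34943 and PH02Gene05437 were chosen after their values were seen. Alpha-galactosidases, which remove galactose from raffinose sugars, moved both ways, with 2 higher and 2 lower of 6 tested on Day 1, 2 higher and 1 lower on Day 15, and 3 higher and none lower on Day 25.

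**Figure D3:**
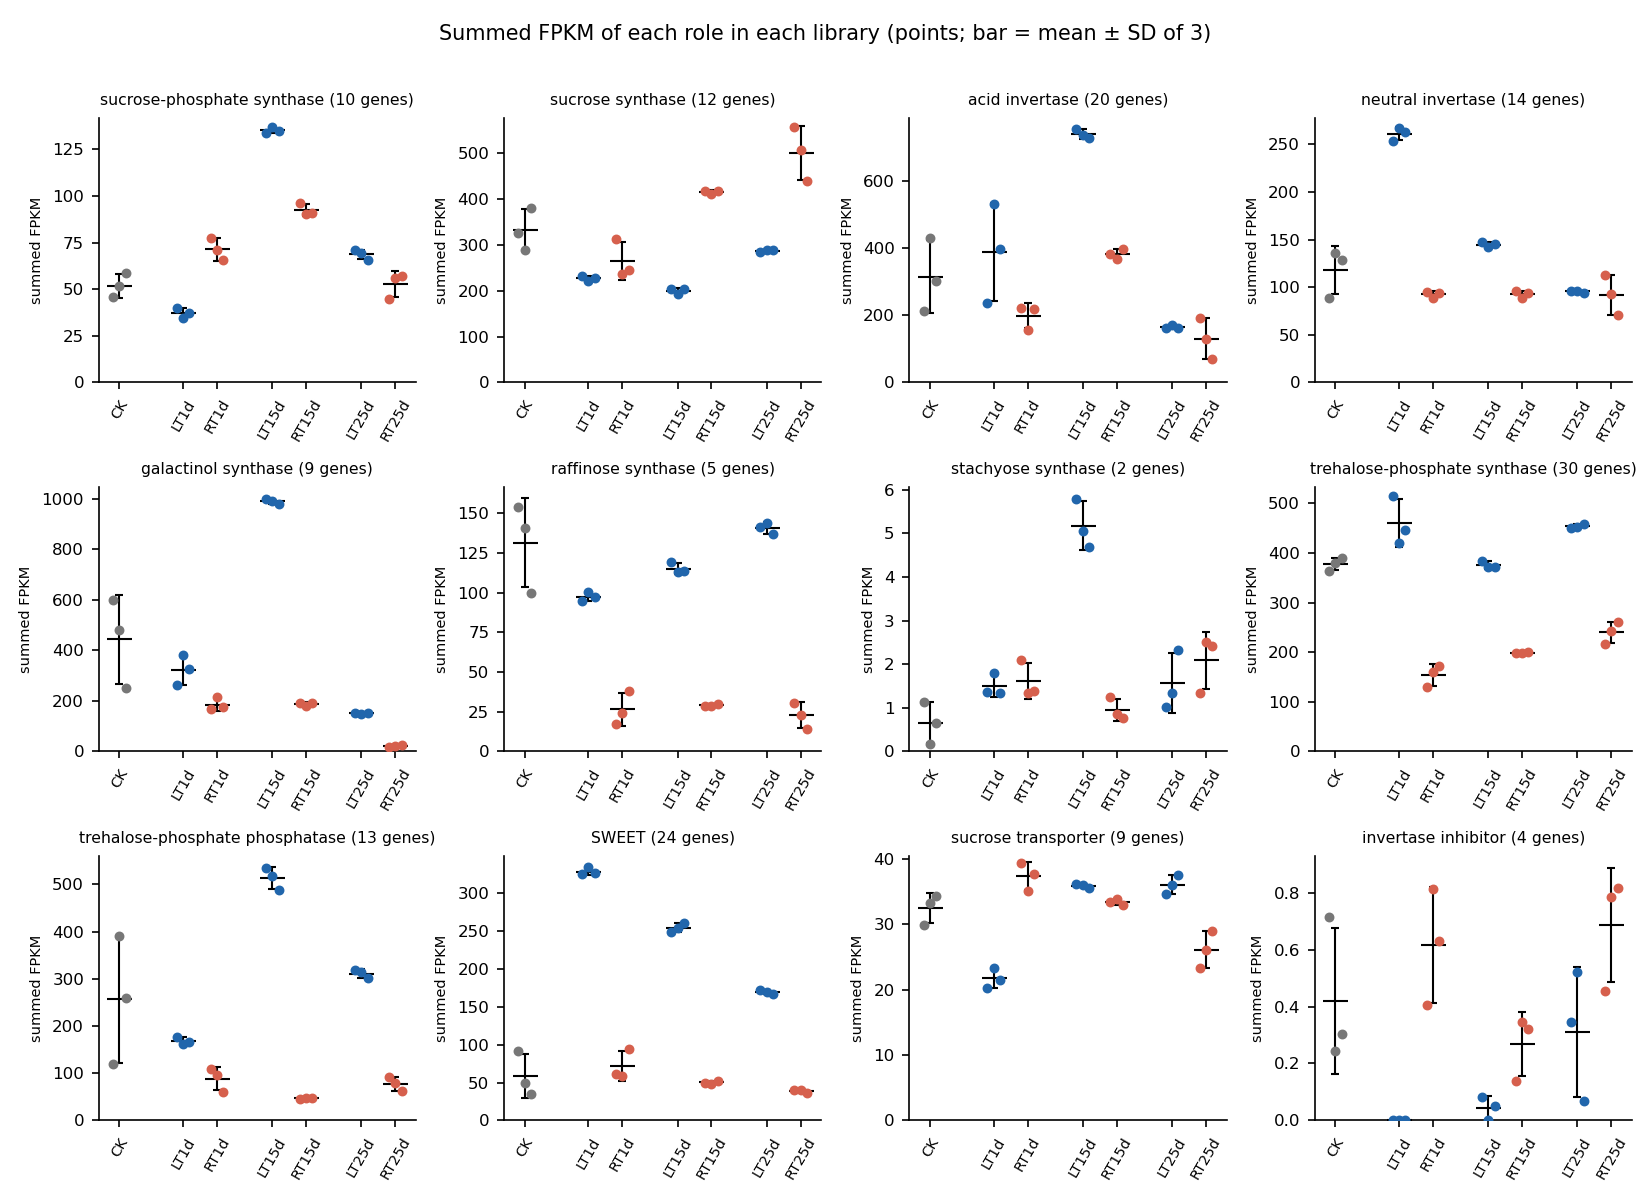
Summed FPKM (y axis, linear, from 0) of all genes of each role in each library (points) and the mean ± SD of 3 (bars); grey is CK, blue LT and red RT, in order of day. Galactinol synthase reaches 990 FPKM in LT15d and 188 in RT15d, and sucrose synthase runs the other way, at 287 FPKM in LT25d and 500 in RT25d. The sums are not TMM scaled.

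Trehalose-phosphate synthase genes summed to 460 ± 48.9 FPKM in LT1d and 154 ± 21.6 in RT1d, to 376 ± 7.34 in LT15d and 199 ± 1.43 in RT15d, and to 454 ± 3.99 in LT25d and 240 ± 22.1 in RT25d. CK stood at 377 ± 12.5 FPKM, above every RT library. Of 24 tested genes, 10 were higher and 2 lower at LT on Day 1, 9 higher and 6 lower on Day 15, and 6 higher and none lower on Day 25. Once the libraries were summed, 12 of the 15 Day 15 calls and 3 of the 6 Day 25 calls remained.

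PH02Gene22525 (scaffold 22, 18943177 to 18947055) had the highest mean level among them. It measured 179, 147 and 150 FPKM in LT1d against 5.23, 8.76 and 16.0 in RT1d, and 34.7, 32.3 and 31.4 in LT15d against 7.34, 8.10 and 8.43 in RT15d. On Day 25 it measured 26.1, 29.1 and 29.6 FPKM in LT25d against 26.1, 21.2 and 17.3 in RT25d, where the groups met. The log2 change was 4.51 ± 0.39 on Day 1, 2.44 ± 0.36 on Day 15 and 0.43 ± 0.34 on Day 25, which was not called (edgeR adjusted p = 2.79e-08, 1.41e-05 and 0.311). Against CK (33.2, 75.0 and 76.4 FPKM) LT1d was higher by 1.51, whereas RT1d, RT15d and RT25d changed by -2.99, -3.24 and -1.85 on the log2 scale.

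PH02Gene21236, PH02Gene42897, PH02Gene48823 and PH02Gene23984, chosen after their values were seen, were the synthases higher at LT on all days. PH02Gene21236 measured 36.8, 37.3 and 36.3 FPKM in LT1d against 4.78, 7.92 and 8.55 in RT1d, 85.9, 82.4 and 83.1 in LT15d against 13.4, 12.6 and 14.6 in RT15d, and 95.5, 94.6 and 97.1 in LT25d against 10.6, 13.1 and 17.7 in RT25d. Its LT over RT log2 change hardly moved between days (2.90 ± 0.20, 3.03 ± 0.20 and 2.84 ± 0.20). PH02Gene42897 averaged 36.8, 31.6 and 74.6 FPKM in LT1d, LT15d and LT25d, against 5.37, 12.1 and 25.4 in RT1d, RT15d and RT25d. PH02Gene48823 averaged 34.8, 36.2 and 52.3 FPKM in LT1d, LT15d and LT25d, against 5.02, 11.3 and 16.1 in RT1d, RT15d and RT25d. PH02Gene23984 averaged 34, 8.07 and 24.5 FPKM in LT1d, LT15d and LT25d, against 2.54, 2.2 and 8.72 in RT1d, RT15d and RT25d, and its Day 25 call was lost with the libraries summed (log2 change 1.55, edgeR adjusted p = 0.0526).

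PH02Gene03938 (scaffold 13) was the synthase with the most negative changes. It measured 1.21, 0.673 and 1.21 FPKM in LT1d against 12.8, 13.3 and 20.4 in RT1d, and 0.532, 0.696 and 0.415 in LT15d against 6.04, 6.40 and 6.65 in RT15d. These groups were far apart (log2 change -3.40 ± 0.34 and -3.14 ± 0.35). On Day 25 LT25d averaged 3.26 ± 0.200 FPKM and RT25d 5.12 ± 1.66, and the difference was not called.

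Trehalose-phosphate phosphatases held 5 of the 10 genes called in opposite directions on Days 1 and 25, of which 2 of 5 remained with the libraries summed. The 13 genes summed to 168 ± 7.93 FPKM in LT1d and 88.7 ± 24.9 in RT1d, to 513 ± 22.9 in LT15d and 47.0 ± 2.11 in RT15d, and to 311 ± 8.54 in LT25d and 77.7 ± 14.9 in RT25d, beside 256 ± 135 in CK. Of 10 tested, 6 were higher and 1 lower at LT on Day 1, 6 higher and 2 lower on Day 15, and 5 higher and 4 lower on Day 25. After summing the libraries, 4 of the 8 Day 15 calls and 4 of the 9 Day 25 calls remained.

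A single gene, PH02Gene50233 (scaffold 15, 1194852 to 1201004), made up most of that sum at LT on the later days. It measured 468, 455 and 424 FPKM in LT15d against 21, 21.1 and 21.7 in RT15d, and 288, 283 and 268 in LT25d against 28.1, 21.9 and 16.2 in RT25d. On Day 1 it measured 15.2, 36.5 and 25.5 FPKM in LT1d against 77.7, 59.5 and 11.3 in RT1d, which overlapped. The log2 change was -0.40 ± 0.56 on Day 1 (not called), 4.79 ± 0.65 on Day 15 and 3.70 ± 0.62 on Day 25 (edgeR adjusted p = 0.541, 6.73e-06 and 0.000121). CK held 14.8, 2.36 and 3.09 FPKM, and the change against CK was 6.28 in LT15d and 5.2 in LT25d.

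PH02Gene20325 had the opposite course, with its highest level in CK (29.2, 235 and 169 FPKM). It averaged 76.2 ± 12.4 FPKM in LT1d and 8.33 ± 4.56 in RT1d, 16.3 ± 0.588 in LT15d and 0.685 ± 0.112 in RT15d, and 4.41 ± 0.597 in LT25d and 1.57 ± 0.311 in RT25d. It was chosen after its values were seen, and although LT exceeded RT on all 3 days, its Day 25 call rested on single libraries. PH02Gene31459, the other phosphatase higher on all days, was likewise chosen after its values were seen and averaged 6.78 ± 1.77 FPKM in LT1d and 0.855 ± 0.253 in RT1d. Without LT25d replicate 3, for PH02Gene20325, the edgeR adjusted p was 0.0597 (log2 change 1.45), without LT25d replicate 2 it was 0.0547 (1.48), without RT25d replicate 2 it was 0.0758 (1.44) and without RT25d replicate 3 it was 0.0740 (1.42).

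Sucrose synthase cuts sucrose reversibly into UDP-glucose and fructose. Beside the barely detected inhibitors, it was the 1 role whose mean summed FPKM was lower at LT than at RT on every day. These sums were not TMM scaled, and on Day 1 the TMM fit did not share their direction. It gave the 7 tested genes a median log2 change of 0.30 on Day 1. The 12 genes summed to 226 ± 5.37 FPKM in LT1d and 264 ± 41.6 in RT1d, to 199 ± 6.20 in LT15d and 414 ± 4.12 in RT15d, and to 287 ± 2.27 in LT25d and 500 ± 58.6 in RT25d, with 331 ± 45.3 in CK. The LT and RT sums did not overlap on any day, although those of Day 1 lay close together, and sums were not tested. Of 7 tested genes, 2 were higher and 1 lower at LT on Day 1, 2 higher and 2 lower on Day 15, and 1 higher and 3 lower on Day 25. With the libraries summed, 3 of the 4 Day 15 calls and 2 of the 4 Day 25 calls remained.

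PH02Gene02657 (scaffold 6, 14116947 to 14123814), the sucrose synthase with the highest mean level, measured 53.1, 119 and 91.0 FPKM in LT1d against 132, 88.2 and 87.9 in RT1d, 64.2, 58.8 and 61.8 in LT15d against 168, 167 and 169 in RT15d, and 43.8, 46.1 and 44.5 in LT25d against 179, 181 and 161 in RT25d. It overlapped on Day 1 and was lower at LT later, by log2 changes of -1.05 ± 0.22 on Day 15 and -1.91 ± 0.23 on Day 25 (edgeR adjusted p = 0.000554 and 3.98e-06). The Day 1 change was 0.31 ± 0.22 and not called, and it was -0.17 with library-size scaling. RT15d and RT25d were not called against CK (142, 136 and 181 FPKM), while LT25d was lower than CK by a log2 change of -2.03. With the libraries summed the Day 15 call was lost (edgeR adjusted p = 0.159).

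PH02Gene46034, lower at LT on all days, measured 5.02, 2.56 and 2.76 FPKM in LT1d against 14.1, 7.60 and 9.17 in RT1d, 2.41, 2.19 and 2.53 in LT15d against 20.2, 19.1 and 18.1 in RT15d, and 8.76, 8.08 and 7.95 in LT25d against 37.2, 24.7 and 12.1 in RT25d. It was chosen after its values were seen. Its Day 1 log2 change of -1.05 ± 0.35 was no longer called without LT1d replicate 2 (-0.90, edgeR adjusted p = 0.0567), LT1d replicate 3 (-0.92, adjusted p = 0.0545) or RT1d replicate 1 (-0.78, adjusted p = 0.0764), and its Day 1 and Day 25 calls were lost with the libraries summed (adjusted p = 0.0561 and 0.148). PH02Gene10600, described as sucrose synthase 3 and also chosen after its values were seen, ran against the summed level of the role on Days 1 and 15. It stood at 23.6 ± 2.48 FPKM in LT1d and 11.2 ± 1.40 in RT1d, and 33.9 ± 1.92 in LT15d and 9.82 ± 0.550 in RT15d. On Day 25 it was not called (log2 change 0.37 ± 0.17). PH02Gene19719, described as sucrose synthase 7, was the 1 sucrose synthase higher on all days and was chosen after its values were seen, at a low level of at most 4.41 FPKM in any library.

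Acid invertases cut sucrose irreversibly, in the cell wall or in the vacuole. The role was set by description and also took any gene described as a fructosyltransferase. The 20 genes summed to 389 ± 147 FPKM in LT1d and 200 ± 38.4 in RT1d, to 741 ± 14.1 in LT15d and 383 ± 15.0 in RT15d, and to 165 ± 5.15 in LT25d and 131 ± 60.8 in RT25d, with 316 ± 109 in CK. Of 13 tested, 6 were higher and 2 lower at LT on Day 1, 6 higher and 3 lower on Day 15, and 5 higher and 1 lower on Day 25. None of the 9 Day 15 calls and 3 of the 6 Day 25 calls remained with the libraries summed.

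The Day 15 level came mostly from a pair of vacuolar invertase genes of the same description, PH02Gene05689 and PH02Gene05690, next to each other on scaffold 20 (51950428 to 51956283 and 51997820 to 52000141). PH02Gene05689 measured 0.465, 1.27 and 1.00 FPKM in LT1d against 20.8, 11.9 and 13.5 in RT1d, 371, 361 and 354 in LT15d against 125, 112 and 130 in RT15d, and 22, 22 and 19.6 in LT25d against 0.655, 0.232 and 0.815 in RT25d. It was thus far lower at LT on Day 1 and higher on the later days, with log2 changes of -3.56 ± 0.47, 1.96 ± 0.43 and 5.24 ± 0.51 (edgeR adjusted p = 4.17e-06, 0.000722 and 4.32e-07).

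PH02Gene05690 followed it, at 0.182 ± 0.0955 FPKM in LT1d and 16.4 ± 6.28 in RT1d, 205 ± 5.88 in LT15d and 124 ± 6.5 in RT15d, and 5.83 ± 0.373 in LT25d and 0.216 ± 0.194 in RT25d. Its Day 1 and Day 25 changes were -5.93 ± 0.61 and 4.76 ± 0.58. Its Day 15 change of 1.11 ± 0.45 (edgeR adjusted p = 0.0375) was not called once any of the 6 Day 15 libraries was left out, with adjusted p of 0.0735, 0.0738 and 0.0648 without LT15d replicate 1, 2 or 3 and of 0.0820, 0.0940 and 0.0804 without RT15d replicate 1, 2 or 3. Once the libraries were summed, the Day 15 calls of both genes were lost (adjusted p = 0.154 and 0.470). The 2 genes may share reads.

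Other acid invertases were higher at LT from Day 1. PH02Gene20078, a vacuolar invertase on scaffold 14, measured 42.8, 99.0 and 71.0 FPKM in LT1d against 3.24, 1.13 and 3.78 in RT1d (log2 change 5.24 ± 0.68), was not called on Day 15, and measured 10.9, 11.1 and 10.8 in LT25d against 1.21, 0.826 and 0.0723 in RT25d (3.98 ± 0.67). PH02Gene06193, a cell wall invertase, measured 29.7, 121 and 82.1 FPKM in LT1d against 11.2, 3.78 and 13.1 in RT1d, 19.6, 17.8 and 18.8 in LT15d against 0.258, 0.795 and 0.537 in RT15d, and 6.89, 7.18 and 7.47 in LT25d against 1.85, 0.695 and 0.0760 in RT25d. Its libraries did not overlap on any day, and with the libraries summed its calls of Days 15 and 25 were lost (edgeR adjusted p = 0.0882 and 0.155). Its CK libraries were themselves far apart, at 14.6, 273 and 153 FPKM.

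PH02Gene02057, a beta-fructofuranosidase chosen after its values were seen, averaged 57.9 ± 25.2 FPKM in LT1d and 7.76 ± 6.45 in RT1d, 42.4 ± 1.79 in LT15d and 2.28 ± 0.218 in RT15d, and 7.14 ± 0.450 in LT25d and 1.5 ± 1.13 in RT25d. It was called on all 3 days, but its Day 25 log2 change of 2.27 ± 0.71 was not called without RT25d replicate 2 (2.18, edgeR adjusted p = 0.0510) or RT25d replicate 3 (1.84, adjusted p = 0.0559). After summing the libraries, its calls of Days 15 and 25 were lost (adjusted p = 0.0688 and 0.188).

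PH02Gene26446, a cell wall invertase and the acid invertase with the highest mean level, measured 103, 184 and 148 FPKM in LT1d against 108, 81.8 and 98.6 in RT1d. The groups overlapped, and the call (log2 change 1.13 ± 0.32) was lost without LT1d replicate 2 (0.89, edgeR adjusted p = 0.0290) and with library-size scaling (0.65). PH02Gene20090, a short vacuolar invertase model of low level, averaged 1.94 ± 0.940 FPKM in LT1d and 0.0985 ± 0.171 in RT1d (log2 change 4.65 ± 1.26). Its Day 15 call (0.370 ± 0.179 FPKM in LT15d, 0.0372 ± 0.0644 in RT15d, edgeR adjusted p = 0.0401) was lost under DESeq2 (adjusted p = 0.0677), with the libraries summed (0.290), and without LT15d replicate 1 (0.0724), LT15d replicate 3 (0.0908), RT15d replicate 1 (0.118) or RT15d replicate 2 (0.118).

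Neutral invertases cut sucrose inside the cytosol and organelles. The 14 genes summed to 261 ± 6.96 FPKM in LT1d and 92.7 ± 3.24 in RT1d, to 145 ± 2.88 in LT15d and 92.4 ± 3.64 in RT15d, and to 95.5 ± 1.07 in LT25d and 92.3 ± 21 in RT25d, beside 118 ± 25.2 in CK. Of 12 tested, 4 were higher and 5 lower at LT on Day 1, 4 higher and none lower on Day 15, and none was called on Day 25. With the libraries summed, 2 of the 4 Day 15 calls remained. On Day 25, edgeR gave 2 of the 12 an unadjusted p under 0.05, and limma called none and DESeq2 none.

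PH02Gene10514 (scaffold 2, 36375286 to 36379957) carried most of the Day 1 difference. It measured 123, 117 and 121 FPKM in LT1d against 6.65, 5.80 and 5.80 in RT1d, and 30.3, 28.2 and 28.9 in LT15d against 6.45, 5.07 and 6.10 in RT15d. On Day 25 it measured 8.84, 8.56 and 8.13 FPKM in LT25d, inside the range of RT25d (11.4, 7.39 and 4.03). The log2 change was 4.83 ± 0.28, 2.71 ± 0.26 and 0.19 ± 0.24 (edgeR adjusted p = 5e-10, 1.2e-07 and 0.542). None of the RT groups was called against CK (5.7, 7.08 and 5.88 FPKM), and LT1d and LT15d differed from CK by 4.44 and 2.35.

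PH02Gene31027, a cytosolic invertase on scaffold 17, measured 61.7, 78.5 and 75.0 FPKM in LT1d against 23.6, 18.1 and 24.5 in RT1d (log2 change 2.23 ± 0.26), and 40.7, 38.1 and 39.0 in LT15d against 18.7, 19.1 and 18.9 in RT15d (1.45 ± 0.25). The Day 15 call was lost with the libraries summed (edgeR adjusted p = 0.0776). PH02Gene30661, of the same description and chosen after its values were seen, averaged 41.1 ± 1.86 FPKM in LT1d and 14.7 ± 2.2 in RT1d. Both lay within the spread of RT25d on Day 25.

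Sucrose-phosphate synthase, which makes the precursor of sucrose, had a lower summed level at LT on Day 1 and a higher one later. The 10 genes summed to 37.3 ± 2.58 FPKM in LT1d and 71.3 ± 6.03 in RT1d, to 135 ± 1.53 in LT15d and 92.6 ± 3.21 in RT15d, and to 68.8 ± 2.56 in LT25d and 52.7 ± 6.80 in RT25d, with 51.9 ± 6.41 in CK. The 3 pairs of groups did not overlap. Of 8 tested genes, none was higher and 2 were lower at LT on Day 1, and 2 were higher and none lower on each later day, of which 1 remained on each with the libraries summed. The 1 gene for sucrose-phosphatase, which completes sucrose synthesis, was not called on any day.

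PH02Gene37903 (scaffold 13, 82249571 to 82276113), the highest of this role, measured 6.46, 6.12 and 6.54 FPKM in LT1d against 25.6, 19.5 and 19.6 in RT1d (log2 change -1.23 ± 0.19). It measured 46.5, 44.6 and 46.4 FPKM in LT15d against 38.4, 35.7 and 37.0 in RT15d and 16.9, 17.3 and 15.4 in LT25d against 8.67, 13.3 and 14.5 in RT25d, differences of 0.70 ± 0.18 and 0.49 ± 0.18 that did not reach the fold threshold. PH02Gene48496 and PH02Gene07232, chosen after their values were seen, were the 2 genes higher at LT on the later days. PH02Gene48496 measured 36.2, 37.8 and 35.4 FPKM in LT15d against 6.0, 6.0 and 6.51 in RT15d, and 8.13, 6.86 and 7.13 in LT25d against 1.06, 1.29 and 1.92 in RT25d. The calls of PH02Gene07232 on both days were lost with the libraries summed (edgeR adjusted p = 0.0778 and 0.0904).

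SWEET transporters let sugars pass down a gradient across the cell or vacuole membrane. The 24 genes summed to 329 ± 5.10 FPKM in LT1d and 71.8 ± 19.6 in RT1d, to 254 ± 5.78 in LT15d and 50.1 ± 1.69 in RT15d, and to 169 ± 2.29 in LT25d and 38.7 ± 2.16 in RT25d, with 58.7 ± 29.6 in CK. Every LT library lay above every RT and CK library. Of 11 tested genes, 5 were higher and 3 lower at LT on Day 1, 5 higher and 5 lower on Day 15, and 5 higher and 1 lower on Day 25. Once the libraries were summed, 3 of the 10 Day 15 calls and 4 of the 6 Day 25 calls remained.

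PH02Gene41640, described as SWEET16 and the highest of the SWEETs, measured 146, 97.3 and 111 FPKM in LT1d against 14.4, 12 and 14.2 in RT1d, 67.3, 69.5 and 69.4 in LT15d against 19.5, 17.3 and 21.7 in RT15d, and 34.1, 34.2 and 35.1 in LT25d against 19.2, 25.1 and 27.7 in RT25d. The log2 change was 3.64 ± 0.56, 2.21 ± 0.53 and 0.57 ± 0.51, the last not called, and the Day 15 call was lost with the libraries summed (edgeR adjusted p = 0.177). CK replicate 1 stood apart here, at 39.0 FPKM against 4.56 and 3.77 in the other CK libraries.

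PH02Gene26486, also described as SWEET16, was called only later. It measured 64.1, 67.7 and 67.5 FPKM in LT15d against 0.440, 1.35 and 0.644 in RT15d, and 9.01, 8.09 and 8.69 in LT25d against 0.0462, 0.128 and 0.530 in RT25d. The log2 change was 6.72 ± 0.77 on Day 15 and 5.2 ± 0.77 on Day 25 (edgeR adjusted p = 9.22e-07 and 3.51e-05), and 1.15 ± 0.66 on Day 1, not called.

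PH02Gene23481 (SWEET4) and PH02Gene23178 (SWEET2a), chosen after their values were seen, were higher at LT on all days. PH02Gene23481 measured 121, 159 and 146 FPKM in LT1d against 17.1, 6.56 and 26.7 in RT1d, 60.6, 58.1 and 59.96 in LT15d against 2.35, 2.42 and 2.43 in RT15d, and 27.1, 29.2 and 25.7 in LT25d against 3.31, 2.27 and 1.62 in RT25d. PH02Gene23178 had its highest level in LT25d, with 20.1, 34.8 and 29.9 FPKM in LT1d, 37.3, 35.6 and 42.6 in LT15d and 86.9, 85.1 and 85.5 in LT25d, against 9.38, 7.01 and 20.2 in RT1d, 3.14, 3.97 and 3.77 in RT15d and 13.3, 7.55 and 2.14 in RT25d. The LT1d and RT1d libraries of PH02Gene23178 overlapped at their edge.

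PH02Gene28963, described as SWEET6b, measured 13.3, 30.6 and 19.6 FPKM in LT1d against 4.05, 4.59 and 16.2 in RT1d, 14.2, 17.4 and 15.2 in LT15d against 2.11, 1.40 and 1.44 in RT15d, and 3.55, 2.88 and 2.11 in LT25d against 0 in all RT25d libraries, at least an 18.5-fold difference over the floor of 12 counts. Its Day 1 call (log2 change 1.88 ± 0.62) was lost without LT1d replicate 2 (1.49, edgeR adjusted p = 0.0642), RT1d replicate 1 (1.55, adjusted p = 0.0599) or RT1d replicate 2 (1.59, adjusted p = 0.0604). LT1d and RT1d overlapped through RT1d replicate 3. After summing the libraries, the Day 1 and Day 15 calls were lost (adjusted p = 0.0839 and 0.123).

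**Figure D4:**
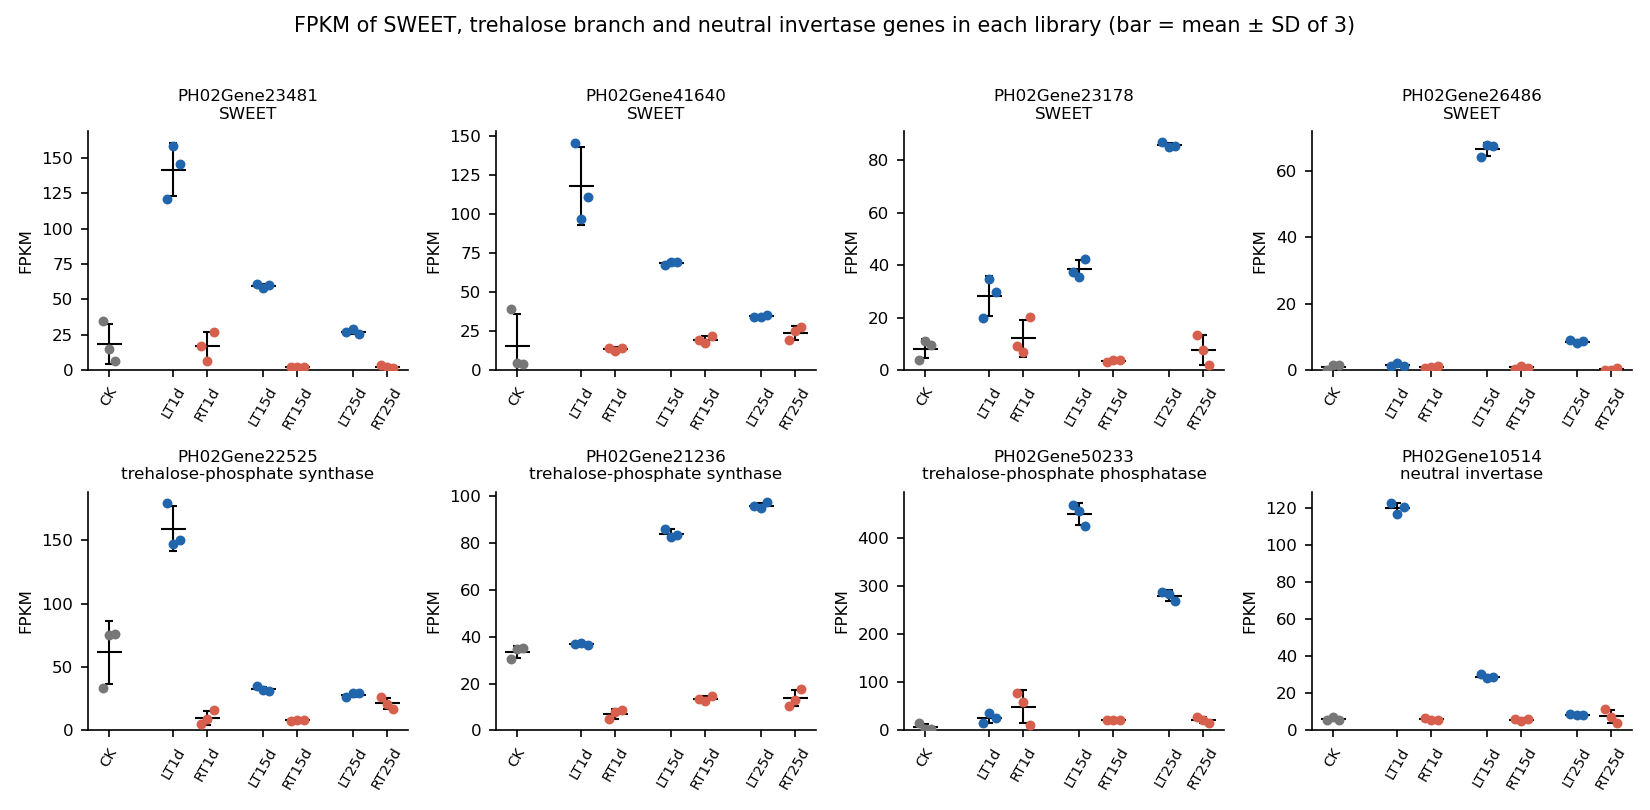
FPKM (y axis, linear) of 4 SWEET genes, 2 trehalose-phosphate synthases, 1 trehalose-phosphate phosphatase and 1 neutral invertase in each of the 21 libraries (points) with the mean ± SD of 3 (bars); grey is CK, blue LT and red RT. PH02Gene10514 peaks in LT1d at a mean of 120 FPKM, PH02Gene50233 in LT15d at 449 FPKM and PH02Gene23178 in LT25d at 85.8 FPKM.

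PH02Gene21722, PH02Gene47308 and PH02Gene21818 were called lower at LT on Day 15 at low levels, of at most 1.91 FPKM in any library of that day. PH02Gene21722 (SWEET13) measured 0.0656, 0.0246 and 0 FPKM in LT15d against 1.90, 1.91 and 1.5 in RT15d. PH02Gene47308 (SWEET14-like) measured 0 in all LT15d libraries against 0.0594, 0.15 and 0.112 FPKM in RT15d. Neither was called on Days 1 and 25. PH02Gene21818 (SWEET3b) measured 0 in all LT1d libraries against 1.11, 1.03 and 1.43 FPKM in RT1d, at least 5.62-fold lower in LT1d over the floor of 12 counts. The Day 15 calls of these 3 genes were lost with the libraries summed (edgeR adjusted p = 0.0794 for PH02Gene21722, 0.0654 for PH02Gene47308 and 0.119 for PH02Gene21818).

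Sucrose transporters, which carry sucrose together with protons, had few calls. The 9 genes summed to 21.7 ± 1.52 FPKM in LT1d and 37.4 ± 2.14 in RT1d, to 35.9 ± 0.298 in LT15d and 33.4 ± 0.435 in RT15d, and to 36.0 ± 1.49 in LT25d and 26.1 ± 2.83 in RT25d, with 32.5 ± 2.35 in CK. Of 3 tested, 1 was called, on Day 15. On each of Days 1 and 25, edgeR gave 2 of the 3 an unadjusted p under 0.05, and the only call by another tool was 1 by limma on Day 1. PH02Gene43118, described as SUT2, measured 19.9, 18.3 and 20.1 FPKM in LT15d against 12, 11.6 and 11 in RT15d (log2 change 1.15 ± 0.19, edgeR adjusted p = 4.29e-05), a call lost with the libraries summed (1.17, adjusted p = 0.0601) and with library-size scaling (0.80).

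Hexoses, the products of invertase, are carried by hexose transporters and phosphorylated by hexokinases and fructokinases. Of 19 tested hexose transporters, 5 were higher and 7 lower at LT on Day 1, 2 higher and 6 lower on Day 15, and 1 higher and 7 lower on Day 25. Of 6 tested fructokinases, none was higher and 3 were lower on Day 1, 2 were higher and 2 lower on Day 15, and none was higher and 2 lower on Day 25. Of 11 tested hexokinases, 3 were higher and 4 lower on Day 1, 1 higher and 2 lower on Day 15, and none higher and 1 lower on Day 25. Trehalase, which splits trehalose, had 1 of 5 lower on Day 1 and 2 higher on Day 15. Over all 9 neighbouring lists, 13 of 56 tested genes were higher and 18 lower on Day 1, 16 higher and 12 lower on Day 15, and 7 higher and 10 lower on Day 25. Of all tested genes, 20.8% were called higher and 23.4% lower on Day 1. The shares were 19.3% and 20.8% on Day 15, and 11.3% and 13.2% on Day 25.

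The signed LT over RT log2 change differed between days for many sugar genes. It was higher on Day 15 than on Day 1 for 30 of the 100 genes and lower for 24, where 17.1% and 16.1% of all tested genes were called. It was higher on Day 25 than on Day 1 for 30 and lower for 27, against 22.8% and 22.1% of all tested genes. A higher signed value can be a negative change nearer 0. Regardless of sign, the fitted change was larger on Day 15 than on Day 1 for 20 of the first 30 and 11 of the 24, and larger on Day 25 for 15 of the second 30 and 7 of the 27. For the counts with the libraries summed, no share of all tested genes is given. With the libraries summed, 13 and 6 were called for Day 15 and 24 and 20 for Day 25.

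Called in opposite directions on Days 1 and 25 were 10 of the 100 genes, a class that held 5.94% of all tested genes, and with the libraries summed 5 of these 10 remained (2.63%). Of the 10, 6 were higher at LT on Day 1 and lower on Day 25, and 4 the reverse. They were 5 trehalose-phosphate phosphatases, 2 vacuolar invertases, 2 SWEETs and 1 raffinose synthase, and those that remained were 2 phosphatases, the 2 vacuolar invertases and the raffinose synthase.

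PH02Gene46766, described as SWEET2a, was nearly absent in RT1d and was not detected in LT25d. Only with LT1d did it pass the filter, so its Day 1 difference and its reversal are a description. It measured 16.8, 7.91 and 13.4 FPKM in LT1d against 0.0801, 0 and 0 in RT1d, and 0 in all LT25d libraries against 1.68, 1.5 and 0.176 in RT25d, which was at least 3.61-fold lower in LT25d over the floor of 12 counts. On Day 15 both groups held at most 0.361 FPKM. Once the libraries were summed, the Day 25 difference was not called (edgeR adjusted p = 0.0529).

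PH02Gene15530, described as SWEET1b, measured 0.675, 0.453 and 0.433 FPKM in LT1d against 6.73, 16.1 and 4.48 in RT1d, 3.39, 3.69 and 3.98 in LT15d against 16.1, 15.1 and 17.0 in RT15d, and 10.3, 8.68 and 8.80 in LT25d against 1.14, 2.40 and 3.05 in RT25d. The groups did not overlap on any day, with log2 changes of -3.56 ± 0.48, -1.73 ± 0.42 and 2.12 ± 0.43. The calls of Days 15 and 25 were lost with the libraries summed (edgeR adjusted p = 0.201 and 0.0583).

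Among the phosphatases, PH02Gene03451 measured 6.23, 3.46 and 6.12 FPKM in LT1d against 1.25, 1.5 and 1.84 in RT1d, 0.312, 0.322 and 0.0296 in LT15d against 0.871, 1.38 and 1.79 in RT15d, and 0, 0.0832 and 0.349 in LT25d against 4.01, 2.95 and 1.34 in RT25d. Its Day 15 log2 change of -2.14 ± 0.80 was not called without LT15d replicate 3 (-1.65, edgeR adjusted p = 0.101), RT15d replicate 2 (-2.11, adjusted p = 0.0517) or RT15d replicate 3 (-1.89, adjusted p = 0.0765), nor with the libraries summed (adjusted p = 0.164). PH02Gene08532, chosen after its values were seen, ran the other way, at 0.936 ± 0.402 FPKM in LT1d and 5.82 ± 1.46 in RT1d, 0.641 ± 0.124 in LT15d and 3.44 ± 0.131 in RT15d, and 5.21 ± 0.668 in LT25d and 0.387 ± 0.107 in RT25d.

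PH02Gene41109 measured 11.8, 6.57 and 8.78 FPKM in LT1d against 1.55, 1.03 and 2.11 in RT1d, 28.1, 27.7 and 26.5 in LT15d against 0.207, 0.641 and 1.06 in RT15d, and 4.87, 5.0 and 6.44 in LT25d against 9.13, 16.3 and 20.2 in RT25d. Its Day 25 log2 change of -1.43 ± 0.48 was not called without LT25d replicate 1 (-1.36, edgeR adjusted p = 0.0674), LT25d replicate 2 (-1.37, adjusted p = 0.0654) or RT25d replicate 3 (-1.17, adjusted p = 0.0764), nor with the libraries summed (adjusted p = 0.247). PH02Gene17805, chosen after its values were seen, averaged 33.9 ± 2.89 FPKM in LT1d and 9.70 ± 1.57 in RT1d, and 9.48 ± 0.418 in LT25d and 29.3 ± 15.0 in RT25d, and its Day 25 call was lost with the libraries summed (adjusted p = 0.231).

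PH02Gene23967 averaged 2.47 ± 0.404 FPKM in LT1d and 1.48 ± 0.565 in RT1d, 3.91 ± 0.594 in LT15d and 3.67 ± 0.235 in RT15d, and 0.342 ± 0.104 in LT25d and 2.73 ± 0.604 in RT25d. Its LT1d and RT1d libraries overlapped, and the Day 1 log2 change of 1.25 ± 0.45 was lost without LT1d replicate 2 (1.16, edgeR adjusted p = 0.0544), LT1d replicate 3 (1.18, adjusted p = 0.0540), RT1d replicate 1 (1.00, adjusted p = 0.0927) or RT1d replicate 2 (1.25, adjusted p = 0.0518) and with library-size scaling (0.78). After summing the libraries, its calls of Days 1 and 25 were lost (adjusted p = 0.0738 and 0.0583).

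**Figure D5:**
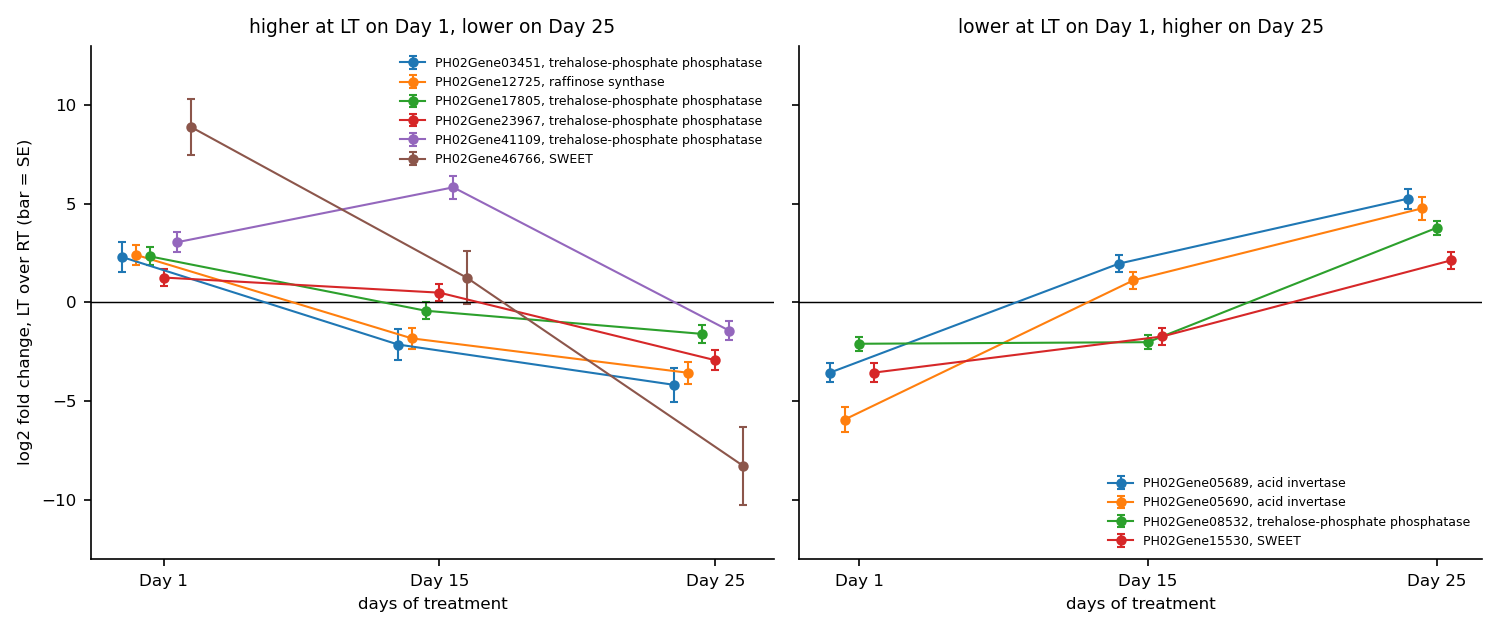
Fitted log2 fold change of LT over RT (y axis, bars are the SE) on Days 1, 15 and 25 for the 10 genes called in opposite directions on Days 1 and 25. The 6 genes at left lie above 0 on Day 1 and below 0 on Day 25, and the 4 at right the reverse.

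Beside CK, LT1d, LT15d and LT25d had 34.0%, 38.6% and 28.3% of all tested genes called in either direction, and RT1d, RT15d and RT25d had 22.8%, 25.7% and 26.2%. These comparisons share the CK libraries. Among the highest genes of their roles, PH02Gene36618 and PH02Gene37903 were higher in LT15d than in CK, by log2 changes of 2.13 ± 0.25 and 1.49 ± 0.19. So were PH02Gene41640 (2.38 ± 0.53), PH02Gene32109 (2.13 ± 0.46) and PH02Gene50233 (6.28 ± 0.70), whereas PH02Gene02657 was lower (-1.18 ± 0.22). The other tested ones were not called in LT15d against CK. PH02Gene37903 was lower in LT1d than in CK, by -1.32 ± 0.19. PH02Gene36618 was also lower in RT25d than in CK, by -3.25 ± 0.26.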

How the data were processed

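RNA from Pn culms was sequenced in 21 libraries, 3 in each of 7 groups. The labels describe oligo(dT)-primed SMARTer cDNA and name FastQC, cutadapt and Salmon, whereas the study's methods name HISAT2, StringTie and DESeq2 with the moso bamboo (Phyllostachys edulis) genome. The labels give no tool versions. The authors deposited 1 table with an estimated count and an FPKM value per gene and library, every column of which was matched to a library (0 left unmatched). The estimated counts were deposited as whole numbers and used as they stood. The sources used here do not say how reads shared by similar genes were assigned.

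Genes that reached an FPKM of 1 in 3 or more libraries (29913 of 42460) were tested with edgeR 4.0.16 in R 4.3.3 (TMM scaling, quasi-likelihood test, 7 groups in 1 fit, two-sided), with Benjamini-Hochberg adjustment over all of them. SE is the absolute log2 change over the square root of F. No exact permutation of 3 against 3 libraries can give a p under 0.1. Differences of the LT effect between days were contrasts of the same fit. Low counts fell on 4 more often (13669 values) than on 3 (7391) or 5 (5647), so a read pair was taken as 4 counts, and the floor for a group at 0 was 3 read pairs, or 12 counts, per library.

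Roles were set by words of the deposited descriptions. Cytosolic invertase went with the neutral invertases, fructofuranosidase and fructosyltransferase went with the acid invertases, and fructokinase excluded phosphofructokinase. Named were PH02Gene44870, the member of highest mean FPKM in each role, the 4 largest and 4 most negative called changes without overlap in each LT against RT comparison, and the 3 largest called reversals between Days 1 and 25. Others are said to be chosen after their values were seen. The members and lists were chosen with earlier results of these data known. A list for sieve elements found 0 genes. Alternatives were median-of-ratios and library-size scaling, DESeq2 1.42.0, limma 3.58.1 on log2(FPKM + 1) or log2(FPKM + 0.1), all genes without a filter, only genes with a mean FPKM of 5 or more, a replicate block, the compared groups alone, the replicates of LT15d, of LT25d and of RT15d summed, and each library left out. The procedure was run on simulated counts with changes placed in LT1d alone and 1 spread per gene for all groups. That run cannot show how the tests behave where groups differ in spread, as these did.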

Additional observations from a re-analysis of the deposited data

Results flagged for a closer look

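By an edgeR contrast of the difference itself, the LT over RT log2 change differed for 24 listed genes between Day 25 and Day 1. Between Day 15 and Day 1 it differed for 19. The lists cover the genes named by rule, with PH02Gene08532 and PH02Gene17805 added on Day 25 for their opposite calls. Other genes chosen after their values were seen are left out, although some differed on both days. Examples are PH02Gene36619 (2.42 on Day 25, 3.01 on Day 15) and PH02Gene23984 (-2.71 and -1.98). PH02Gene17805 differed on Day 15 as well (-2.75). Each value below is the later signed log2 change minus that of Day 1. A positive value can thus be a negative change nearer 0, as for PH02Gene03938 and PH02Gene21818 on Day 25 and PH02Gene15530 on Day 15, and a negative value a decrease that grew, as for PH02Gene02657. Values for genes at 0 in all libraries of a group (PH02Gene44870, PH02Gene46766, PH02Gene21818, PH02Gene28963 and PH02Gene47308) are fitted values and no bound on a fold. A contrast holding the group that brought its gene past the filter is a description. This applies to PH02Gene46766 on both days, PH02Gene21818 on Day 25 and PH02Gene44870 on Day 15.

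The signed change was higher on Day 25 than on Day 1 for galactinol synthase PH02Gene36618 (3.37), raffinose synthase PH02Gene10661 (2.79), stachyose synthase-like PH02Gene44870 (13.02), sucrose-phosphate synthase PH02Gene37903 (1.72), vacuolar invertases PH02Gene05690 (10.69) and PH02Gene05689 (8.80), trehalose-phosphate synthase PH02Gene03938 (2.79), trehalose-phosphate phosphatases PH02Gene50233 (4.10) and PH02Gene08532 (5.87), and SWEETs PH02Gene21818 (7.59), PH02Gene15530 (5.68), PH02Gene26486 (4.05) and PH02Gene28963 (8.71). It was lower later for SWEETs PH02Gene41640 (-3.07) and PH02Gene46766 (-17.14), neutral invertases PH02Gene31027 (-2.55) and PH02Gene10514 (-4.63), sucrose synthase PH02Gene02657 (-2.22), trehalose-phosphate synthase PH02Gene22525 (-4.07), raffinose synthase PH02Gene12725 (-5.97), and trehalose-phosphate phosphatases PH02Gene41109 (-4.48), PH02Gene03451 (-6.47), PH02Gene23967 (-4.19) and PH02Gene17805 (-3.92).

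The signed change was higher on Day 15 than on Day 1 for PH02Gene36618 (2.66), PH02Gene44870 (15.55), sucrose transporter PH02Gene43118 (1.05), PH02Gene37903 (1.94), PH02Gene50233 (5.2), PH02Gene41109 (2.78), PH02Gene05690 (7.05), PH02Gene05689 (5.51), PH02Gene15530 (1.83) and PH02Gene26486 (5.57). It was lower later for PH02Gene02657 (-1.36), PH02Gene22525 (-2.07), PH02Gene46766 (-7.63), vacuolar invertase PH02Gene20078 (-4.33), PH02Gene10514 (-2.12), SWEETs PH02Gene47308 (-6.70) and PH02Gene21722 (-4.88), PH02Gene03451 (-4.43) and PH02Gene12725 (-4.23). The differences of PH02Gene44870 were not called without RT1d replicate 3 (edgeR adjusted p = 1 on both days), the 1 library of Day 1 that held a count of it.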

How the results depend on the processing

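Of 5055 values of named genes under the alternatives, 4730 kept their direction and their side of the threshold, 281 lost a call, 20 gained one and 24 changed sign, none of the last being called with the TMM fit. With the compared groups alone, which takes the spread from those groups only, 275 values were kept, 28 lost a call and 2 gained one. The number of replicates and the small spread within LT15d, LT25d and RT15d limit these tests, and at 12 counts per library a gene near 0 cannot be given a fold change.

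With a mean FPKM of at least 5, which tests fewer genes, 7 sugar genes were lower on Day 1, 8 were lower on Day 15, and the signed LT over RT change was higher than on Day 1 for 19 on Day 15 and 17 on Day 25. With the replicates of LT15d, of LT25d and of RT15d summed, which leaves fewer samples, 26 were higher and 6 lower on Day 15, 4 were lower on Day 25, and the signed change was higher for 13 and lower for 6 on Day 15 than on Day 1. With limma on log2(FPKM + 1) the signed change was lower for 15 on Day 15, and the cause was not tested. Leaving out 1 library at a time gave 39 to 42 higher and 15 to 17 lower on Day 1, 41 to 43 and 18 to 19 on Day 15, 30 to 32 and 8 to 13 on Day 25, 26 to 31 higher and 20 to 25 lower signed changes on Day 15 than on Day 1, and 25 to 31 and 24 to 31 on Day 25. No share of all tested genes is given for the alternatives in this section.

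Same-numbered LT and RT libraries did not deviate together (correlations from -0.0803 to 0.0136), so the numbers do not pair them. With the replicate block, Day 1 had 41 higher and 17 lower, Day 15 had 44 and 19, and Day 25 had 32 and 10, with 30 higher and 24 lower signed changes on Day 15 than on Day 1 and 29 and 26 on Day 25.

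On Day 1, library-size scaling gave log2 changes of -0.0372 for PH02Gene32109, -0.17 for PH02Gene02657, -0.39 for PH02Gene43118 and -0.0917 for PH02Gene05437. limma on log2(FPKM + 1) gave -0.0498, -0.27, -0.39 and -0.15 for the same genes, and on log2(FPKM + 0.1) -0.0723, -0.28, -0.42 and -0.16. A mean FPKM of 5 or more gave -0.0284 for PH02Gene43118, and the replicate block gave 0.00413 for PH02Gene47308 on Day 25. Without 1 library, the Day 1 change ran between -0.0549 (LT1d replicate 1) and 1.02 for PH02Gene47308, between -0.0918 (LT1d replicate 2; -0.0737 without RT1d replicate 3) and 0.33 for PH02Gene43118, between -0.90 and 0.0459 (LT1d replicate 2) for PH02Gene21722, and between -0.87 and 0.0651 (RT1d replicate 1) for PH02Gene50233. The Day 25 change ran between -0.20 (LT25d replicate 3) and 6.34 for PH02Gene21722, between -0.59 and 0.00956 (RT25d replicate 1) for PH02Gene31027, between -0.38 and 0.24 (RT25d replicate 1) for PH02Gene30661, and, with the low end without RT25d replicate 3, between -0.24 and 0.68 for PH02Gene26446 and between -0.11 and 0.65 for PH02Gene10514. The causes were not tested.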
